A study of Homo sapiens with 6 samples.

Results

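Cells build and repair DNA from deoxynucleoside triphosphates (dNTPs), and 9 genes for enzymes that supply, reroute or remove them were followed here: RRM1, RRM2, RRM2B, TYMS, DCTD, DUT, TK1, TK2 and SAMHD1. They were taken by symbol from the 58735 genes of the deposited tables, and all 9 passed the filter on low counts. The set was chosen with earlier results of these data known. RNA had been sequenced from H2452, an established human pleural mesothelioma line, in 3 libraries named sgCtrl and 3 named sgNF2-1. Both groups were transduced with a lentivirus carrying Cas9, mCherry and an sgRNA, scrambled in sgCtrl and directed at NF2 in sgNF2-1, and mCherry-positive cells were sorted. The labels give the genotype as WT for the first group and as NF2 knockout for the second. Each group is therefore a sorted pool of 1 line with 1 sgRNA, grown in RPMI-1640 with serum, and not a set of clones. NF2 encodes merlin, a tumour suppressor upstream of the Hippo pathway, and the study asked how its loss is linked to pyrimidine synthesis, whose products these enzymes use.

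Ribonucleotide reductase removes the 2′-hydroxyl of ribonucleoside diphosphates and is made of a large catalytic subunit, RRM1, and a small subunit, which is RRM2 in dividing cells or the p53-inducible RRM2B. Thymidylate is made from dUMP by TYMS, the target of fluoropyrimidines and of pemetrexed, a drug used in mesothelioma, while DCTD and DUT supply that dUMP from dCMP and from dUTP. TK1 in the cytosol and TK2 in mitochondria phosphorylate thymidine for salvage, and SAMHD1 breaks dNTPs down to nucleosides. RRM1, RRM2, TYMS, DUT and TK1 are textbook genes of the G1 to S transition, and E2F sites and CCAAT boxes are common in promoters of that class.

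The bases just ahead of the start sites are shown as a description, and their part in the changes was not tested. Windows of 130 bases that end at the base before a RefSeq start (GRCh38.p14) are given for 8 of the 9 genes, namely RRM1 at chr11:4094555-4094684 (+ strand), RRM2 at chr2:10122609-10122738 (+ strand), TYMS at chr18:657523-657652 (+ strand), DCTD at chr4:182917612-182917741 (- strand), DUT at chr15:48332067-48332196 (+ strand), TK1 at chr17:78187053-78187182 (- strand), TK2 at chr16:66550123-66550252 (- strand) and SAMHD1 at chr20:36951709-36951838 (- strand). Capitals mark CCAAT or its reverse complement ATTGG, the CCAAT box, and the E2F forms TTTGGCGC, TTTCGCGC and TTTCCCGC or their reverse complements, read 5′ to 3′ on the strand of the gene:
RRM1: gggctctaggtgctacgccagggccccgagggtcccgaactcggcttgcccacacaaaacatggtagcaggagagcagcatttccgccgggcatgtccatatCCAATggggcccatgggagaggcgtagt
RRM2: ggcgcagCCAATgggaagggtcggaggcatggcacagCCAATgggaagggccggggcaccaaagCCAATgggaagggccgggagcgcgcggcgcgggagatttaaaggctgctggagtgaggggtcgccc
TYMS: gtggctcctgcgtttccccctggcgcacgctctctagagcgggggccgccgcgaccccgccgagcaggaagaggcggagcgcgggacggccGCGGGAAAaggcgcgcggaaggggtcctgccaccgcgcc
DCTD: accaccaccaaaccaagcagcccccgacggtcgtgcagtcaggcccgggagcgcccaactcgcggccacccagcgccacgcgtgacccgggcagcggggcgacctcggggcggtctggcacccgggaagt
DUT: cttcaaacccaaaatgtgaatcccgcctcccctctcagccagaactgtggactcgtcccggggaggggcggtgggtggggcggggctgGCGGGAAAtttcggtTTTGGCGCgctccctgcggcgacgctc
TK1: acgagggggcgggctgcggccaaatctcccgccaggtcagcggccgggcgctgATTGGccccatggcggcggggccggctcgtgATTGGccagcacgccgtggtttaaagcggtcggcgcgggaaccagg
TK2: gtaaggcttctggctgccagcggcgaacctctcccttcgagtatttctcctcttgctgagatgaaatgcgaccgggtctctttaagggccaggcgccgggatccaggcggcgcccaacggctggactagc
SAMHD1: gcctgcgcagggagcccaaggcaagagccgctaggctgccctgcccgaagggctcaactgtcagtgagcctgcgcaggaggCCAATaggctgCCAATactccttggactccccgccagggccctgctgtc

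RRM2 held 3 CCAAT boxes in this window, TK1 and SAMHD1 held 2 each and RRM1 held 1. DUT held 2 E2F forms, TTTGGCGC beginning 27 bases and GCGGGAAA beginning 42 bases before the start, and TYMS held 1, GCGGGAAA beginning 39 bases before it. The windows of DCTD and TK2 held neither. Of all 35116 RefSeq windows of this length, 21.5% held a CCAAT box and 1.28% an E2F form. The TEAD letters GGAATG (6.09% of windows) and the AP-1 letters TGACTCA (2.54%), searched on both strands, were in none of the 8. Where a gene had several starts, the one with the most matches is shown, a choice not made for the 35116 windows. For those genes the shares over all windows are therefore not a like comparison. Motifs and window length were chosen with the results known, so the matches are a description of these letters. No window is given for RRM2B.

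The libraries held 14782423 to 17416463 counts, and 14179 genes were tested. Levels are given as CPM, a count relative to the total of its library after scaling by TMM, which corrects for differences in library composition. As the check on the labels, NF2 had 1162, 1197 and 1025 counts in sgCtrl replicates 1 to 3 and 692, 802 and 590 counts in sgNF2-1 replicates 1 to 3. Its level was 71.4 ± 3.36 CPM (SD, n = 3) against 44.2 ± 6.77 CPM (SD, n = 3), so the targeted transcript was lower in every sgNF2-1 library but present in all of them. The study's statistics section calls its replicates biological, but nothing says that these libraries came from separate cultures. The p-values therefore judge a group difference against a spread between libraries that may be technical. In bulk RNA, fewer cells of a kind and less RNA per cell cannot be told apart. Epithelial and mesothelial markers summed to 3480 to 3925 CPM in sgCtrl and 3372 to 4132 CPM in sgNF2-1. Keratins made up most of this sum, with KRT8 at 1961 and 1730 CPM in the respective groups. The sum hides moves both ways, such as MSLN from 36.4 to 57.6 CPM and WT1 from 10.0 to 4.86 CPM. The mesothelial KRT5 was near 0 and CALB2 at 4.33 and 3.02 CPM. Of markers of other cells, PTPRC, DCN and LUM were at 0 in every library, whereas CD14 stood at 139.1 ± 7.76 CPM in sgCtrl and 66.9 ± 3.41 CPM in sgNF2-1 (SD, n = 3). The 11 markers together summed to 141.8 to 154.0 CPM and 67.2 to 73.0 CPM in the respective groups, and their part in the results was not tested.

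In all, 6 of the 9 genes fell in the sgNF2-1 libraries, 1 rose and 2 did not pass the test (edgeR's quasi-likelihood test, Benjamini-Hochberg adjusted p under 0.05). RRM1, RRM2, SAMHD1, TYMS, TK1 and DUT were the lower genes and DCTD the higher one, while TK2 and RRM2B were not called. Among all tested genes, 16.6% were called lower and 17.7% higher, so that 6 of 9 lower stood above the background and 1 of 9 higher did not. All sgNF2-1 libraries lay below all sgCtrl libraries for 6 of the 9, where 22.2% of tested genes did so, and above them for 2, where 23.2% did so. The median log2 fold change was -0.33 over the 9 genes and 0.00 over all tested genes. With a log2 fold limit of 0.5 added to the adjusted p, RRM1 and RRM2 were the 2 lower genes left, and 9.32% of tested genes were lower by that rule. The summed level of the 9 transcripts in sgNF2-1 was 84.0% of that in sgCtrl.

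The lowest log2 fold changes of the 9 were those of the 2 subunits of the S-phase ribonucleotide reductase. RRM1, the catalytic subunit (ENSG00000167325, chromosome 11, 4094707 to 4138876), had 125.1, 123.2 and 141.9 CPM in sgCtrl replicates 1 to 3 and 88.1, 91.7 and 81.0 CPM in sgNF2-1 replicates 1 to 3. Each sgNF2-1 library was below the lowest sgCtrl library, and the closest pair was 91.7 and 123.2 CPM. The log2 fold change was -0.58 (SE 0.09, adjusted p = 9.37e-06 from edgeR), from 130.1 ± 10.3 to 87.0 ± 5.44 CPM (SD, n = 3). RRM2, the small subunit of dividing cells (ENSG00000171848, chromosome 2, 10120698 to 10131419), had 58.6, 55.0 and 57.5 CPM in sgCtrl and 36.9, 36.7 and 38.3 CPM in sgNF2-1. Its libraries were tightly grouped, with means of 57.0 ± 1.82 and 37.3 ± 0.83 CPM (SD, n = 3) and a wide gap between the groups. The change was -0.61 on the log2 scale (SE 0.09, adjusted p = 1.09e-05 from edgeR). Both genes held their call under every one of the 12 alternative settings of the count test.

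RRM2B, the other small subunit, was not called in either direction. This gene (ENSG00000048392, chromosome 8, 102204502 to 102239118), which serves DNA repair and mitochondrial DNA in resting cells, had 16.2, 17.7 and 17.8 CPM in sgCtrl and 17.8, 17.9 and 17.8 CPM in sgNF2-1. The groups overlapped, and the log2 fold change was 0.05 with a 95% interval from -0.19 to 0.29 (adjusted p = 0.79, edgeR). Against the fall of RRM2, the ratio of RRM2 to RRM2B in FPKM, a count divided by gene length and library depth, was 3.76, 3.25 and 3.37 in sgCtrl and 2.16, 2.14 and 2.25 in sgNF2-1. All sgNF2-1 ratios were below all sgCtrl ratios, a log2 difference of -0.66 (exact permutation test over libraries, two-sided, p = 0.10, and no lower p is possible with 3 against 3). The ratio of RRM2 to RRM1 showed no such gap. It was 0.35 ± 0.03 in sgCtrl and 0.34 ± 0.03 in sgNF2-1 (SD, n = 3), with overlapping libraries (exact permutation test, p = 0.80). In FPKM, RRM2 went from 10.2 ± 0.31 to 6.58 ± 0.14 and RRM1 from 29.5 ± 2.29 to 19.6 ± 1.27 (SD, n = 3), so that per length RRM1 stood above RRM2 in both groups.

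Of the 3 genes on the route to thymidylate, the synthase and the dUTPase fell and the deaminase rose. TYMS, which methylates dUMP (ENSG00000176890, chromosome 18, 657604 to 673578), had 25.9, 21.4 and 24.3 CPM in sgCtrl and 17.8, 18.6 and 18.2 CPM in sgNF2-1. The sgNF2-1 libraries lay within 1 CPM of each other and below sgCtrl replicate 2, the lowest control. Its log2 fold change was -0.39 (SE 0.12, adjusted p = 0.011, edgeR), and without sgCtrl replicate 1 the adjusted p was 0.062. The limma call of TYMS on FPKM (adjusted p = 0.020) was lost under 4 of 9 alternatives. TYMS shares its locus with ENOSF1, which runs on the opposite strand and had 545 to 785 counts, and with the antisense transcript TYMSOS, which had 26 to 46 counts. Neither passed the test (log2 fold changes of -0.07 and -0.21), and because it is not stated whether counting used strand, reads in the shared bases cannot be told apart.

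DUT, the dUTPase that keeps uracil out of DNA and makes dUMP (ENSG00000128951, chromosome 15, 48331011 to 48343373), had 184.9, 156.8 and 178.3 CPM in sgCtrl and 142.9, 128.9 and 146.0 CPM in sgNF2-1. The highest sgNF2-1 library, replicate 3, was 10.8 CPM under the lowest control, replicate 2. The fall was -0.32 on the log2 scale (SE 0.09, adjusted p = 0.0056, edgeR), and the adjusted p was 0.055 without sgNF2-1 replicate 2. In limma on FPKM the call of DUT (adjusted p = 0.037) was lost under 7 of 9 alternatives. DCTD, the dCMP deaminase (ENSG00000129187, chromosome 4, 182890060 to 182917936), moved the other way, from 111.0, 117.8 and 116.3 CPM in sgCtrl to 136.7, 134.3 and 144.7 CPM in sgNF2-1. Every sgNF2-1 library was above every sgCtrl library. Its log2 fold change was 0.27 (SE 0.08, adjusted p = 0.011, edgeR), and without sgCtrl replicate 1 the adjusted p was 0.052. Its limma call on FPKM (adjusted p = 0.035) was likewise lost under 7 of 9 alternatives, among them each of the 6 that leave out a library. DUT has 9 annotated pseudogenes in the table, which summed to at most 10 counts in any library.

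Of the thymidine kinases, TK1 fell and TK2 was not called. TK1, the cytosolic enzyme of cycling cells (ENSG00000167900, chromosome 17, 78174075 to 78187233), had 72.6, 65.0 and 75.8 CPM in sgCtrl and 51.1, 55.2 and 63.8 CPM in sgNF2-1. The groups were close, since sgNF2-1 replicate 3 and sgCtrl replicate 2 were 1.17 CPM apart. The log2 fold change was -0.33 (SE 0.10, adjusted p = 0.010, edgeR), it was not past the threshold without sgNF2-1 replicate 1 (adjusted p = 0.092), and limma on FPKM gave an adjusted p of 0.051. TK2, the mitochondrial enzyme (ENSG00000166548, chromosome 16, 66508003 to 66552544), had 42.7, 41.1 and 43.5 CPM in sgCtrl and 48.2, 48.3 and 51.1 CPM in sgNF2-1. All sgNF2-1 libraries were above the controls, yet the difference of 0.21 on the log2 scale (95% interval 0.02 to 0.40) did not pass after adjustment (adjusted p = 0.075, edgeR). The TK1 to TK2 ratio in FPKM was 6.45 ± 0.32 in sgCtrl and 4.43 ± 0.36 in sgNF2-1 (SD, n = 3), with no overlap (two-sided exact permutation test, p = 0.10). TYMS to TK1, the thymidylate synthase against the salvage kinase of the same phase, was 0.25 ± 0.01 and 0.24 ± 0.03 (SD, n = 3) with overlapping libraries (exact permutation test, p = 0.70).

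SAMHD1, the enzyme that removes dNTPs, also fell. This gene (ENSG00000101347, chromosome 20, 36889773 to 36951901) had 121.1, 122.5 and 132.6 CPM in sgCtrl and 99.0, 84.8 and 87.7 CPM in sgNF2-1. Even sgNF2-1 replicate 1, the highest of its group, was below each control. The log2 fold change was -0.47 (SE 0.09, adjusted p = 0.000126, edgeR), and the call held under all 12 alternative settings.

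Per length, DUT was the most abundant of the 9 transcripts and RRM2B the least. In sgCtrl the order by mean FPKM was DUT (44.7 ± 3.74), TK1 (36.2 ± 2.76), DCTD (31.4 ± 0.99), RRM1 (29.5 ± 2.29), SAMHD1 (10.6 ± 0.51), RRM2 (10.2 ± 0.31), TYMS (9.16 ± 0.88), TK2 (5.61 ± 0.15) and RRM2B (2.94 ± 0.15), each with its SD over n = 3. DCTD and RRM1, SAMHD1 and RRM2, and RRM2 and TYMS were neighbours whose sgCtrl libraries overlapped. In sgNF2-1, DCTD came first at 37.5 ± 1.40 FPKM, ahead of DUT at 35.6 ± 2.25 FPKM (SD, n = 3). The ranges of the pair overlapped there, with DCTD from 36.5 to 39.1 FPKM and DUT from 33.03 to 37.2 FPKM. The authors divided by a gene length that joins all transcripts. It is from 1.11 times (TK1) to 2.05 times (SAMHD1) the length of the longest transcript. With the longest transcript in its place, DCTD (55.3) would stand above TK1 (40.1) in sgCtrl, so the order of those 2 depends on the length used.

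Other S-phase genes fell beside the reductase. Of 39 tested genes of an S-phase list that leaves out RRM1, RRM2 and TYMS, 22 fell and 0 rose. Among all tested genes, 16.6% were called lower and 17.7% higher. The list's median log2 fold change was -0.36 against 0.00 for all tested genes. Those that fell included DSCC1 (-1.41) of the clamp loader, CCNE2 (-1.25), a cyclin of S-phase entry, HELLS (-0.98), a chromatin remodeller, and PCNA (-0.86), the sliding clamp. The summed level of the list was 1546 to 1597 CPM in sgCtrl and 1273 to 1304 CPM in sgNF2-1. Of 52 tested genes of G2 and mitosis, 17 fell, among them HJURP (-0.65), KIF11 (-0.47) and CDK1 (-0.44), and RANGAP1 (0.61) was the 1 that rose, with a list median of -0.13. The share of cells in S phase is not known for the cultures that gave this RNA. In other experiments the study reports enhanced proliferation of cells after NF2 loss and a higher tumour burden in mice. The study profiled the cell cycle of H2452 sgCtrl and sgNF2-1 cells by flow cytometry in an experiment with the drug brequinar. Those values were not used here, and the part of these lists in the members' changes was not tested.

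Counts per 1000 counts of the S-phase list give the members' level next to that list. Because the list's summed level in sgNF2-1 was 81.5% of that in sgCtrl, every gene is raised by the same factor on this scale. TYMS (15.1 ± 1.22 in sgCtrl, 14.2 ± 0.34 in sgNF2-1), TK1 (45.1 ± 2.87 and 44.1 ± 4.47), DUT (109.8 ± 7.51 and 108.4 ± 6.49) and SAMHD1 (79.5 ± 3.86 and 70.5 ± 6.33) overlapped between the groups on this scale (SD, n = 3). RRM1 remained lower, with 82.5 ± 6.03 against 67.7 ± 5.01, as did RRM2, with 36.2 ± 0.55 against 29.04 ± 0.29 (SD, n = 3). DCTD, TK2 and RRM2B stood at 107.8, 38.3 and 13.9 in sgNF2-1 against 73.0, 26.9 and 10.9 in sgCtrl, and for RRM2B, whose CPM overlapped between the groups, the gap comes from that common factor. This scale was chosen after the values were seen.

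Among 13 tested regulators of the reductase and of S-phase entry, 5 fell and 0 rose, against 16.6% lower and 17.7% higher among all tested genes. E2F8 (-0.85), which is in the S-phase list too, E2F2 (-0.69) and E2F1 (-0.60) are factors that bind E2F sites. ATM (-0.41) and ATR (-0.36) are the kinases of the DNA damage response. The list as composed held a gene more, DUSP1, which rose (0.82), encodes a phosphatase of MAP kinases and had been entered by mistake. Of 5 genes that return electrons to the reductase, TXNRD1 (-0.40) and GSR (-0.25) fell and GLRX2 (0.29) rose. TXNRD1, thioredoxin reductase, was the most abundant of them, with 3310 ± 151 CPM in sgCtrl and 2517 ± 96.0 CPM in sgNF2-1 (SD, n = 3).

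For other kinases of dNTP supply, the shares called were near those of all tested genes (17.7% higher and 16.6% lower). The list of 12 holds DCK and DGUOK, which phosphorylate deoxynucleosides, beside kinases that carry dNMPs and dNDPs to triphosphates. Of the 12, 2 rose, NME1 (0.33) among them. CMPK1 (-0.50) and CMPK2 (-0.48), the cytosolic and mitochondrial UMP/CMP kinases, were the 2 that fell. DTYMK, which phosphorylates the dTMP made by TYMS and TK1 and was picked out after its values were seen, had 119.0 ± 12.9 and 112.0 ± 16.4 CPM (SD, n = 3) and did not pass. Of 9 genes of the folate cycle that feeds TYMS, 3 rose and 2 fell. SLC19A1, the reduced folate carrier (0.81), SHMT2, the mitochondrial serine hydroxymethyltransferase (0.73), and FPGS, which adds glutamates to folates (0.28), rose. GGH, which removes those glutamates (-0.96), was among those that fell. Of 13 tested genes of dNTP breakdown and pool cleaning, NT5M (1.10), ITPA (0.44) and PNP (0.34) rose and NUDT5 (-0.26) fell. The list of mitochondrial supply shares TK2 and RRM2B with the members and DGUOK with the kinases. It also shares TYMP and NT5M, a mitochondrial deoxynucleotidase, with the breakdown list. Of its 12 genes, 0 fell and 3 rose, against 16.6% lower and 17.7% higher among all tested genes, and those that rose included NT5M and SLC25A33 (0.40), a pyrimidine nucleotide carrier.

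The genes whose levels tracked RRM2 most closely over the 6 libraries were NAB2, P3H4, PC, PCNA and SCG5, with Pearson r of 0.998 to 0.999 of log2 CPM among 8970 genes of at least 10 CPM. For TYMS they were HNRNPDL, IL15RA, ST13, ENTPD4 and C1orf174, with r of 0.988 to 0.991. All points share the same 2 groups of 3 libraries, so a shift between groups raises these values, whatever its size. They are a description.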

How the data were processed

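Total RNA of H2452 cells was made into libraries with the NEBNext Ultra kit, and the authors deposited 1 table of unnormalized counts and 1 of FPKM, by gene, for 3 sgCtrl and 3 sgNF2-1 libraries. The submitters' processing notes name HISAT2, StringTie 1.3.3b, featureCounts 1.5.0-p3 and hg38; the strand setting is not given in the sources used here. The deposited FPKM values equal the count divided by gene length and 1 depth per library, within 1% for all genes with at least 100 counts. Coordinates are those of the count table.

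Counts were filtered with filterByExpr (minimum count 10, minimum total 15), scaled by TMM and fitted with edgeR's quasi-likelihood model in R 4.3.3 (edgeR 4.0.16, DESeq2 1.42.0, limma 3.58.1), and p-values were adjusted by Benjamini-Hochberg over all 14179 tested genes. FPKM was tested with limma on log2(FPKM + 1) over genes with a mean of at least 0.5, a scale that understates changes of low genes. Counting error limits the precision least for DUT and most for RRM2B, which had 253 to 314 counts. Members, lists, motifs and tests were chosen with earlier results of these data known. The genes named are the members, NF2, overlapping genes, the called genes of each list (at most 4 each way by size) and the 5 genes most like TYMS and RRM2; some results that this rule selects are not reported here. The lists are dNTP kinases, folate genes, dNTP breakdown, mitochondrial supply, reductants, reductase control, S phase, G2 and mitosis, p53 targets, interferon-stimulated genes, and mesothelial and other cell type markers. The procedures were tested on simulated data. Alternatives were DESeq2, other scalings, other filters, a replicate block, fold limits, another pseudocount and leaving out each library.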

Additional observations from a re-analysis of the deposited data

How the results depend on the processing

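Of 273 recomputed values, 239 kept direction and side of the threshold or, for ratios, moved by less than the spread between replicates or, for counts of genes, stayed within 1.5 times. They include 4 ratios of CPM, whose differences equal those of FPKM by construction. The fold limit of 0.5 changed the counts most. With it, 0 members were higher and 2 lower, both with the adjusted and with the unadjusted p, against 1 and 6 without it, and the numbers over all tested genes were 1308 higher and 1531 lower with the unadjusted p and 1194 and 1322 with the adjusted p, against 2515 and 2351. When each library was left out, 0 to 1 members were higher. The log2 fold changes then ranged from -0.47 to -0.33 for TYMS, from -0.42 to -0.25 for TK1, from 0.24 to 0.29 for DCTD and from -0.38 to -0.26 for DUT, each losing its call without 1 library. The limma differences of log2(FPKM + 1) ranged from -0.43 to -0.30 for TYMS, from -0.42 to -0.26 for TK1 (past the threshold without sgNF2-1 replicate 3), from 0.22 to 0.27 for DCTD and from -0.39 to -0.27 for DUT, with the call lost under 4 of 9 alternatives for TYMS and 7 of 9 each for DCTD and DUT. For RRM2B they ranged from -0.0038 (without sgCtrl replicate 1) to 0.044. Without the FPKM filter TK2 passed (0.17, adjusted p = 0.049) and DUT did not (-0.32, adjusted p = 0.068), nor did DUT with a pseudocount of 0.1 (-0.33, adjusted p = 0.056). With the replicate block, DCTD lost its limma call (0.25, adjusted p = 0.065). Over genes, deviations of log2 CPM from the group mean were close to uncorrelated between same-numbered libraries (r of -0.03, 0.06 and 0.05). The numbers were therefore not taken as pairs in the main fit. TMM factors fell with the number in both groups, from 1.025 to 0.981 in sgCtrl and from 1.012 to 0.965 in sgNF2-1. Whether the numbers mark a batch was not tested. Depth limits RRM2B most, and the causes of these shifts were not tested.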

Other observations

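Interferon-stimulated genes, which mark the antiviral response, were mostly lower in sgNF2-1. Of 20 tested, 12 fell and 1 rose (edgeR, adjusted p under 0.05), against 16.6% lower and 17.7% higher among all tested genes. The list's median log2 fold change was -0.30 against 0.00 for all tested genes. IFI44L (-1.38), IFI6 (-1.33), IFI44 (-1.16) and BST2 (-0.82) fell most, whereas IFIT2 (0.46) rose. Their summed level was 6300 to 6676 CPM in sgCtrl and 4616 to 5331 CPM in sgNF2-1. Of 18 tested p53 targets, 5 rose and 3 fell, where 17.7% of all tested genes rose and 16.6% fell. BBC3 (0.92) and AEN (0.87), which act in cell death, and CDKN1A (0.34), the inhibitor of cyclin-dependent kinases, were among those that rose, and TP53INP1 (-1.36), PHLDA3 (-0.73) and ZMAT3 (-0.51) fell. RRM2B, itself a p53 target, was not called. Of 9 tested mesothelial and epithelial markers, KRT7 (1.20), MSLN (0.66) and KRT18 (0.28) rose and PDPN (-1.28), WT1 (-1.04) and KRT19 (-0.94) fell. Of the 3 tested markers of other cells, PECAM1 (-2.28) and CD14 (-1.06) fell.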
